A study of Mus musculus with 4 samples.

Results

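The 10 mouse genes *Tgfb1*, *Tgfb2*, *Tgfb3*, *Tgfbr1*, *Tgfbr2*, *Tgfbr3*, *Smad2*, *Smad3*, *Smad4* and *Smad7*, chosen by their gene symbols, were examined among the 55487 genes counted in mouse embryonic fibroblasts (MEFs) treated with pigment epithelium-derived factor (PEDF). All 10 were well measured, with between 525 and 6670 counts in every library, and all 10 were among the 19384 genes tested. MEFs are primary fibroblasts from mouse embryos with a limited lifespan in culture, and PEDF is a secreted protein of the serpin family. The comparison asked how 24 h of PEDF changes gene expression in these cells.

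TGF-beta is made as an inactive dimer that stays bound to its own propeptide and, through latent TGF-beta binding proteins, to the extracellular matrix until it is released. The free ligand binds the type II receptor, which recruits and phosphorylates the type I receptor, and the type I receptor phosphorylates the receptor Smads. These enter the nucleus with the common partner *Smad4*, and in fibroblasts the pathway is known for inducing collagens, fibronectin and the inhibitory *Smad7*, which feeds back on the receptor.

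The groups were wild-type MEFs without PEDF (control) and the same cells given PEDF at 100 ng/mL, both grown at passage 2 in medium with 10% fetal bovine serum, and the labels name no other allele or agent. The paper's text gives a later passage. There were 2 control and 2 PEDF libraries of polyadenylated RNA, and experiments 1 and 2 each gave 1 library of either kind. Each experiment used MEFs from its own embryos, so the libraries of an experiment share a cell preparation. Libraries held 14722848 to 18144640 counts. Levels below are CPM (counts in 1000000 counts of a library, scaled by edgeR's TMM factors) where a gene is followed across libraries, and TPM (transcripts in 1000000, which allow for gene length) where genes are set beside each other. Fibroblast markers (8 genes) summed to between 13080 and 18050 TPM, and the endothelial markers (5 genes) to between 6.83 and 7.24 TPM. Macrophage (6 genes), skeletal muscle (5 genes) and epithelial (5 genes) markers were detected, at summed levels of 113.9 to 207.3, 294.8 to 375.8 and 72.2 to 90.7 TPM. In these bulk samples, fewer cells of a type and less RNA per cell cannot be told apart.

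*Tgfb3* was the most abundant of the 10 genes, at 269.4 and 319.9 TPM in control MEFs of experiments 1 and 2 and at 246.9 and 294.8 TPM with PEDF. It was followed, by mean TPM over the 4 libraries, by *Tgfb2* (63.9), *Smad4* (61.0), *Tgfbr2* (53.1), *Tgfb1* (45.0), *Smad3* (42.2), *Tgfbr1* (32.4), *Smad7* (30.6), *Smad2* (19.2) and *Tgfbr3* (16.1). The ranges of neighbours in this order overlapped for *Tgfb2* and *Smad4*, for *Tgfb1* and *Smad3*, and for *Tgfbr1* and *Smad7*. *Tgfb1* was nevertheless above *Smad3* in 4 of 4 libraries, whereas *Tgfb2* was above *Smad4* in 3 and *Tgfbr1* was above *Smad7* in 2. The other neighbours were in the same order in every library.

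**Figure D1:**
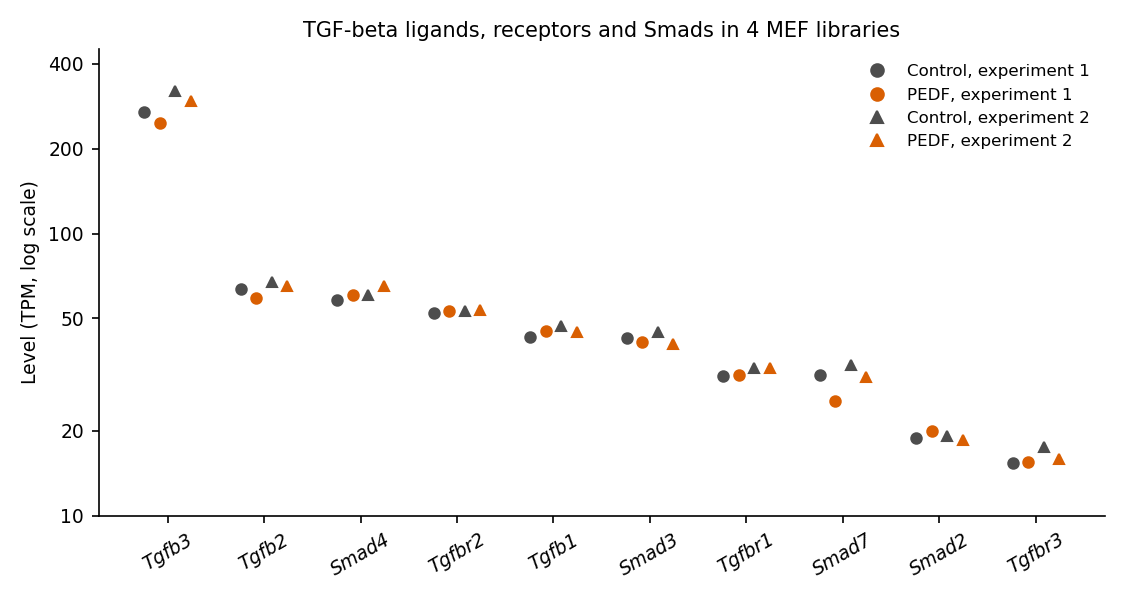
Levels of the 10 genes in TPM on a log scale, ordered by their mean, with 1 point for each library (grey, control; orange, PEDF; circles, experiment 1; triangles, experiment 2). *Tgfb3* lies between 246.9 and 319.9 TPM, above all others, and within each gene the points of the groups lie close together.

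The 3 ligands together amounted to 376.0 and 434.3 TPM in control MEFs and to 351.2 and 404.9 TPM with PEDF. *Tgfb3* made up 71.6% and 73.7% of this sum in control MEFs and 70.3% and 72.8% in PEDF-treated MEFs. Both groups overlapped in the sum and in this share, although within each experiment the sum and the share were slightly lower with PEDF. *Tgfb2* made up 15.5% to 16.9% and *Tgfb1*, the isoform best known from platelets and immune cells, 10.8% to 12.8%.

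*Tgfb3* (ENSMUSG00000021253; GRCm38, chromosome 12, 86056745 to 86079041, minus strand) was measured at 323.6 and 373.9 CPM in control MEFs and at 304.8 and 346.6 CPM with PEDF. It was lower with PEDF in both experiments, by 0.09 and 0.11 on the log2 scale, yet the groups overlapped because the libraries of experiment 2 were both above those of experiment 1. The fitted log2 fold change was -0.10 ± 0.083 (SE), which did not pass the test (edgeR's quasi-likelihood test, adjusted p = 0.827). With the experiment as a block, which takes the difference between the cell preparations out of the spread, it was -0.10 ± 0.046 (edgeR, unadjusted p = 0.031, adjusted p = 0.268). The exons of *Tgfb3* overlap those of the opposite-strand genes *Gm37804* by 163 bp and *Gm48008* by 257 bp, and these held 415 to 680 and 550 to 774 counts in a library. The strand setting of the counting is not stated, so that the reads of these genes and of *Tgfb3* may not be separated.

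*Tgfb2* (ENSMUSG00000039239; chromosome 1, 186622792 to 186705989, minus strand) had 130.5 and 134.9 CPM in control MEFs and 125.3 and 131.3 CPM in PEDF-treated MEFs. *Tgfb1* (ENSMUSG00000002603; chromosome 7, 25687002 to 25705077, plus strand) had 77.2 and 81.8 CPM against 82.8 and 78.8 CPM. The groups overlapped for both ligands. *Tgfb2* was slightly lower with PEDF in both experiments (log2 fold change of -0.05 ± 0.071), and *Tgfb1* was higher in experiment 1 and lower in experiment 2 (0.02 ± 0.078). *Tgfb2* shares 124 bp of exon with the antisense *Gm29491*, which held 95 to 125 counts, few beside the 1926 to 2407 of *Tgfb2*.

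The type II receptor *Tgfbr2* (ENSMUSG00000032440; chromosome 9, 116084293 to 116175360, minus strand) binds the ligand first. Its level was 151.9 and 150.1 CPM in control MEFs and 159.3 and 152.8 CPM with PEDF. The PEDF libraries were both above the control libraries, but by little (log2 fold change of 0.05 ± 0.070). The type I receptor *Tgfbr1* (ENSMUSG00000007613; chromosome 4, 47353222 to 47414931, plus strand), the kinase that phosphorylates *Smad2* and *Smad3*, had 72.8 and 75.6 CPM in control MEFs and 75.0 and 75.9 CPM with PEDF. Its groups overlapped, and its log2 fold change was 0.02 ± 0.077. *Tgfbr3* (ENSMUSG00000029287; chromosome 5, 107106570 to 107289629, minus strand), known as betaglycan, is a co-receptor that presents the ligand. It had 35.6 and 39.7 CPM in control MEFs and 36.9 and 36.2 CPM with PEDF, so that the control libraries enclosed the PEDF libraries. It was higher with PEDF in experiment 1 (log2 ratio of 0.05) and lower in experiment 2 (-0.13).

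Per length, *Tgfbr2* was 1.67 and 1.58 times as abundant as *Tgfbr1* in control MEFs and 1.69 and 1.61 times with PEDF. It was 3.02 to 3.45 times as abundant as *Tgfbr3* over the 4 libraries. In the ratio to *Tgfbr1*, both libraries of experiment 1 were above both of experiment 2, and the groups overlapped.

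Of the receptor Smads, *Smad3* (ENSMUSG00000032402; chromosome 9, 63646767 to 63757994, minus strand) had 83.8 and 85.4 CPM in control MEFs and 83.2 and 78.1 CPM in PEDF-treated MEFs. Both PEDF libraries were below both control libraries, with a log2 fold change of -0.07 ± 0.077, and nearly all of the difference lay in experiment 2 (-0.13, against -0.0098 in experiment 1). *Smad2* (ENSMUSG00000024563; chromosome 18, 76241580 to 76310963, plus strand) had 58.9 and 58.2 CPM in control MEFs and 64.2 and 56.7 CPM with PEDF. The PEDF libraries lay on either side of the control libraries (0.05 ± 0.085). Per length, *Smad3* was 2.05 to 2.33 times as abundant as *Smad2*, and the ratio was lower in the PEDF libraries (2.05 and 2.18) than in the control libraries (2.25 and 2.33).

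*Smad4* (ENSMUSG00000024515; chromosome 18, 73639009 to 73703780, minus strand) is the partner shared by the receptor Smads of TGF-beta and of bone morphogenetic proteins. It had 76.5 and 77.8 CPM in control MEFs and 81.8 and 83.8 CPM with PEDF. The groups did not overlap and both experiments moved alike, by log2 ratios of 0.10 and 0.11. The log2 fold change was 0.10 ± 0.076 and did not pass the test (edgeR, adjusted p = 0.801 without the block and 0.459 with it).

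*Smad7* (ENSMUSG00000025880; chromosome 18, 75367529 to 75395935, plus strand), the inhibitory Smad that TGF-beta itself induces, had the largest fitted difference of the 10 genes between the groups. It had 744 and 955 counts in control MEFs and 656 and 871 with PEDF, that is 50.4 and 53.5 CPM against 42.2 and 48.9 CPM. Both PEDF libraries were below both control libraries. The mean was 52.0 ± 2.21 CPM (SD, n = 2) in control MEFs and 45.6 ± 4.72 CPM with PEDF, a fitted change of -12.3% with a 95% interval from 0.767-fold to 1.00-fold. The log2 ratio was -0.26 in experiment 1 (95% exact counting interval from -0.41 to -0.10) and -0.13 in experiment 2 (-0.27 to 0.00). The difference did not pass the test (edgeR, log2 fold change of -0.19 ± 0.091, unadjusted p = 0.0535, adjusted p = 0.719), nor did it with the experiment as a block (-0.19 ± 0.073, unadjusted p = 0.00955, adjusted p = 0.135). Per length, *Smad7* stood at 0.738 and 0.768 of *Smad3* in control MEFs and at 0.622 and 0.768 with PEDF, the low value being that of the PEDF library of experiment 1. The intervals of the log2 ratios within an experiment cover counting error alone, being computed from the counts of its libraries. The processing described names no removal of PCR copies.

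Across the 10 genes, 0 passed an adjusted p of 0.05 in edgeR's quasi-likelihood test of PEDF against control, where 0.00516% of all genes tested did. At an unadjusted p under 0.05 the count was again 0, against 6.88% of all genes, and DESeq2 gave 0 at either threshold. With the experiment as a block edgeR called 0 of the 10 as well, against 3.75% of all genes, and *Tgfb3* and *Smad7* had an unadjusted p below that level, which 14.6% of all genes had. The groups did not overlap for 4 of the 10 (*Tgfbr2* and *Smad4* higher, *Smad3* and *Smad7* lower with PEDF), beside 37.3% of all genes (18.9% higher, 18.4% lower). The direction was the same in both experiments for 7 of the 10, beside 58.9% of all genes. Of these, 3 were higher with PEDF (all genes, 30.1%) and 4 lower (28.8%). The median log2 fold change of the 10 was -0.011, with a range from -0.19 to 0.10, and that of all genes tested was 0.0012. The 95% intervals without the block reached no further than 0.767-fold and 1.20-fold for any of the 10, so a larger change of any of these transcripts lay outside its interval. With 2 libraries against 2, an exact permutation test of a single value cannot give a two-sided p below 0.333, and p-values here rest on 2 cell preparations.

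**Figure D2:**
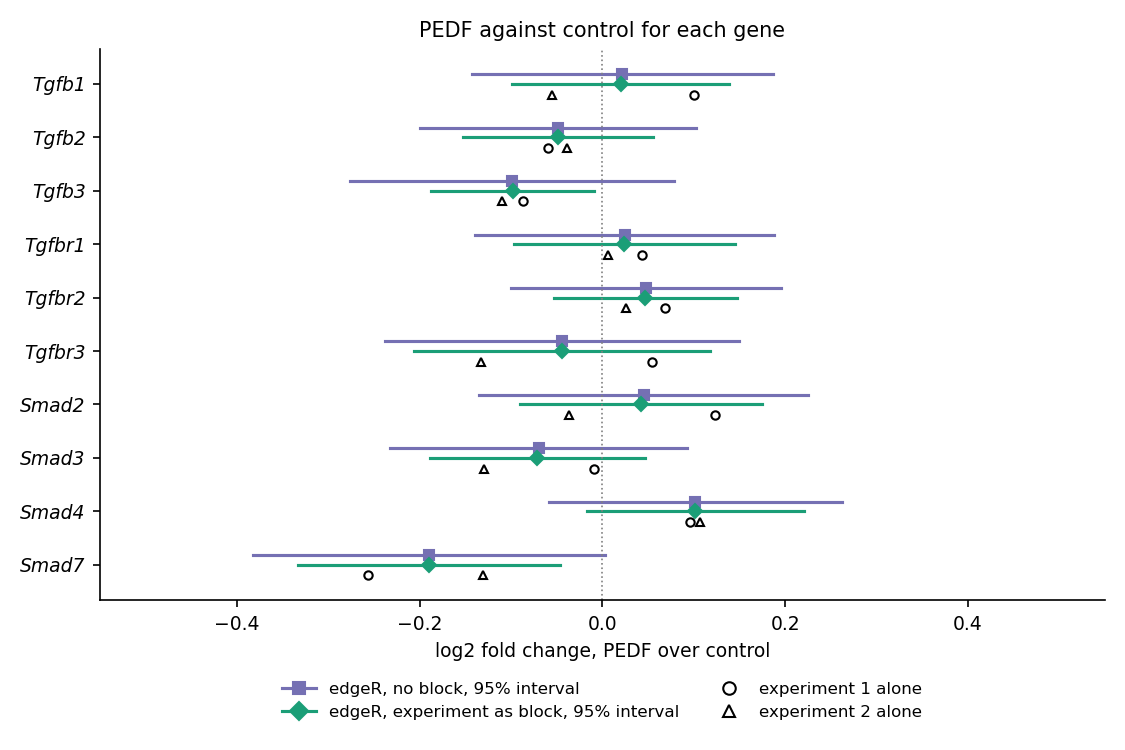
Log2 fold change of PEDF over control for the 10 genes: the edgeR estimate without a block (purple squares) and with the experiment as a block (green diamonds), each with its 95% interval, and the log2 ratio within experiment 1 (open circles) and experiment 2 (open triangles). The intervals without the block all include 0, and with the block those of *Tgfb3* and *Smad7* lie below it.

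The cell preparations were also compared with each other. *Tgfb3* was 14.7% higher in experiment 2 than in experiment 1 (log2 difference of 0.20 ± 0.072, edgeR, adjusted p = 0.568, where 0 of the 10 and 0.0567% of all genes were called), and with treatment as a term in the fit the difference passed the test (0.20 ± 0.046, adjusted p = 0.0011). It was the only 1 of the 10 that did so, beside 4.49% of all genes tested. *Smad7* was higher in experiment 2 by 0.15 ± 0.073 on the log2 scale with this term (edgeR, adjusted p = 0.315), and was the gene with the widest range of log2 CPM over the 4 libraries (0.34), before *Tgfb3* (0.30) and *Smad2* (0.18).

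The other genes of the pathway were taken as 4 lists by role, 75 genes in all, of which 74 were tested. Without the block 0 of the 74 passed an adjusted p of 0.05 and 10 had an unadjusted p under that value. In the fit with the block, 13 fell and 2 rose, beside 2.07% and 1.67% of all genes tested. Nearly all of these genes were abundant (67 of 74 had a mean log2 CPM above 3), and among the 10683 genes above that level 6.47% were called and 3.6% fell. All 15 belonged to 2 of the lists, the genes that hold and release latent TGF-beta and the genes that TGF-beta is known to induce.

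**Figure D3:**
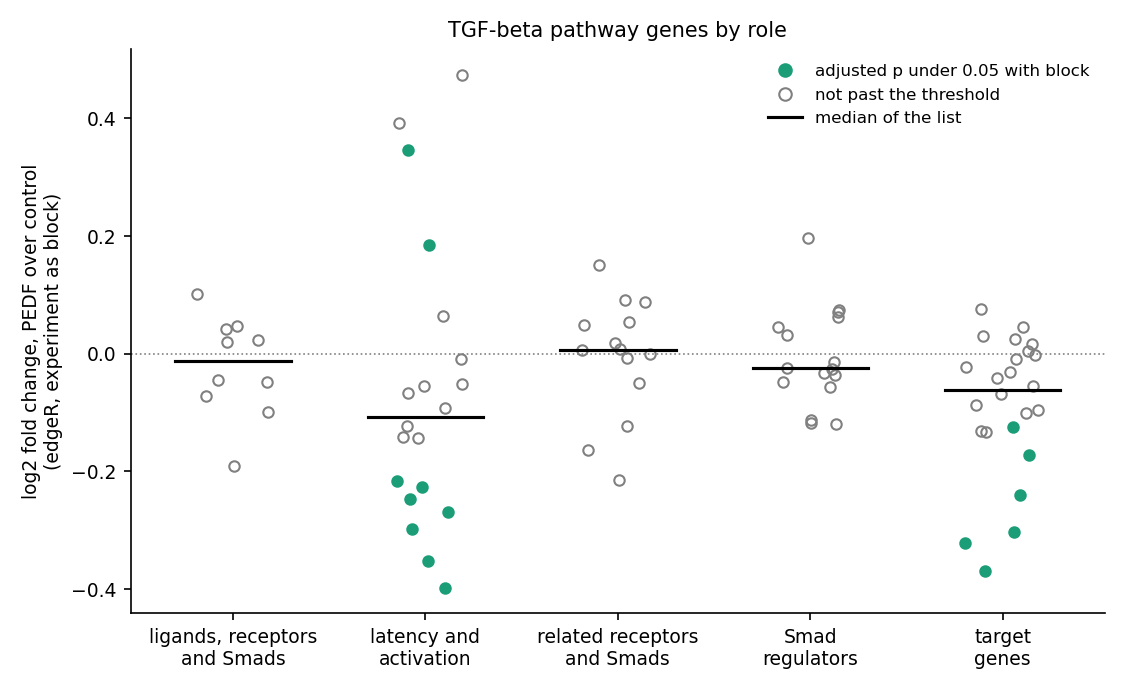
Log2 fold change of PEDF over control, from edgeR with the experiment as a block, for the 10 genes and the 4 further lists (1 point a gene; filled, adjusted p under 0.05; black line, median of the list). Filled points occur among the latency and activation genes (7 below 0 and 2 above) and the target genes (6 below 0), and there are none among the ligands, receptors and Smads.

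Of the 20 latency and activation genes, 7 fell and 2 rose with the block (all genes tested, 2.07% and 1.67%), with a median log2 fold change of -0.11 (all genes tested, 0.0023), and 14 of the 20 were lower with PEDF in both experiments (all genes, 28.8%). No share among genes of like abundance or length was computed for this direction. *Fbn1*, the fibrillin of the microfibrils to which latent complexes attach, had 1571 and 2009 CPM in control MEFs and 1226 and 1484 CPM with PEDF. Both PEDF libraries were below both control libraries, and the log2 fold change was -0.40 ± 0.040 (edgeR, adjusted p = 2e-19 with the block and 0.695 without it). Without the block its error was 0.13. Errors with the block reflect mainly a spread pooled over genes, not that of a gene over its 2 experiments. *Ccn2*, with unlike log2 ratios in the experiments (-0.33 and -0.018), had 0.043, as *Ltbp2* did. The p-values with the block therefore do not measure how well the 2 experiments agree. *Thbs1*, the thrombospondin that can release TGF-beta from its propeptide, had 4908 and 6208 CPM against 3921 and 5135 CPM. It was lower with PEDF within each experiment, although the PEDF library of experiment 2 was above the control library of experiment 1 (-0.30 ± 0.037, adjusted p with the block = 6.8e-13). *Ltbp2*, of the latent TGF-beta binding protein family although it does not itself bind latent TGF-beta, showed the same arrangement, with 565.3 and 746.7 CPM against 482.4 and 603.2 CPM (-0.27 ± 0.043, adjusted p with the block = 1.7e-07). With 1 library left out, without the block, the log2 fold change ranged from -0.57 to -0.21 for *Fbn1*, from -0.50 to -0.12 for *Thbs1* and from -0.46 to -0.060 for *Ltbp2*. The smallest differences were those without the control library of experiment 2 for *Fbn1* and *Ltbp2* and without the PEDF library of experiment 1 for *Thbs1*.

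*Itgav*, the integrin subunit that binds and activates latent TGF-beta, had 360.6 and 422.5 CPM in control MEFs and 301.7 and 358.5 CPM with PEDF. The log2 fold change was -0.25 ± 0.045 (edgeR, adjusted p = 1e-05 with the block). *Ltbp1*, *Lrrc32* and *Itgb3* also fell, by 0.22, 0.23 and 0.35 on the log2 scale. Those are the binding protein of the large latent complex, a cell surface anchor of latent TGF-beta, and an integrin partner of *Itgav*. In the other direction, the small proteoglycan *Dcn*, which binds TGF-beta, rose from 91.0 and 67.1 CPM to 107.0 and 92.3 CPM (0.35 ± 0.059, edgeR, adjusted p = 1.1e-06 with the block and 0.718 without it). Its log2 fold change without the block was 0.13 when the control library of experiment 2 was left out and 0.57 when that of experiment 1 was. *Dcn* was the reverse of *Fbn1* also between experiments, with lower values in experiment 2. *Aspn*, a related proteoglycan, rose by 0.19. *Bgn*, the most abundant proteoglycan of the list by TPM, had 2982 and 2915 CPM against 2807 and 2884 CPM and did not pass the test (log2 fold change of -0.05, adjusted p with the block = 0.609).

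Of the 24 target genes, 6 fell and 0 rose with the block (all genes tested, 2.07% and 1.67%), with a median log2 fold change of -0.061, and 13 of the 24 were lower in both experiments (all genes, 28.8%, again not matched for abundance or length). *Fn1*, fibronectin, had 8556 and 10260 CPM in control MEFs and 6927 and 7591 CPM with PEDF. The groups did not overlap (-0.37 ± 0.036, edgeR, adjusted p = 2.9e-21 with the block and 0.536 without it). *Col5a1* had 3772 and 4800 CPM against 3217 and 3605 CPM (-0.32), and *Col1a1*, the chain of type I collagen that was the most abundant of the list, had 19420 and 24010 CPM against 17300 and 19320 CPM (-0.24). For each of these collagens the groups did not overlap, by a small margin in *Col1a1*. The proteoglycan *Vcan* had 592.4 and 730.7 CPM against 475.9 and 597.9 CPM (-0.30, adjusted p with the block = 1.4e-09). With the control library of experiment 2 left out, without the block, the log2 fold change was -0.24 for *Fn1*, -0.15 for *Col5a1*, -0.086 for *Col1a1* and -0.14 for *Vcan*, and with the control library of experiment 1 left out it was -0.50, -0.49, -0.39 and -0.45.

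*Ccn2*, connective tissue growth factor, had 772.8 and 769.5 CPM in control MEFs and 614.5 and 759.9 CPM with PEDF. The PEDF library of experiment 1 was low and the other 3 lay close together, so that the log2 ratio was -0.33 in experiment 1 and -0.018 in experiment 2. Its call with the block (-0.17, edgeR, adjusted p = 0.0034) therefore rests on 1 library, and without that library the log2 fold change (edgeR, no block) was -0.022. The contractile gene *Acta2*, induced by TGF-beta in myofibroblasts, had 2255 and 2381 CPM against 2288 and 2403 CPM, a log2 fold change of 0.017 with the block (adjusted p = 0.908). *Col1a2* fell by 0.12.

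**Figure D4:**
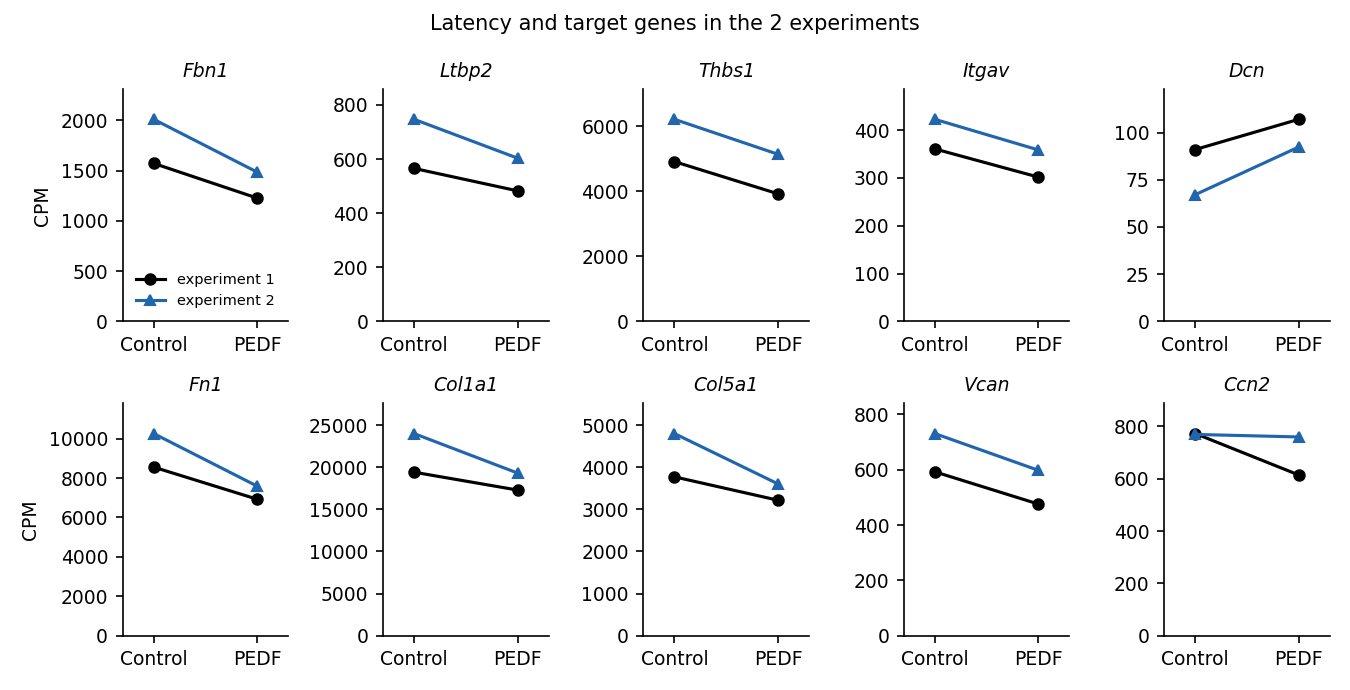
CPM of 5 latency genes (top) and 5 target genes (bottom) in the control and PEDF library of experiment 1 (black circles) and experiment 2 (blue triangles), with a line joining the libraries of an experiment and each axis starting at 0. All genes shown were called with the block, and genes of the lists without a call are not drawn. Within each gene shown the lines of both experiments go the same way, but for *Ccn2* the fall lies in experiment 1 (log2 ratio of -0.33, against -0.018 in experiment 2).

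No call was made with or without the block in the 14 tested genes of related receptors and Smads (median log2 fold change with the block of 0.0070) or in the 16 Smad regulators (-0.024). The smallest adjusted p with the block was 0.117 in the former, for *Acvr1*, a type I receptor of bone morphogenetic proteins (-0.16). *Bmpr1a*, another such receptor, had a log2 fold change of 0.092 (adjusted p with the block = 0.437). Among the regulators, the Smad repressor *Ski* had -0.014 (adjusted p = 0.942), and *Fkbp1a*, a protein that binds the type I receptor, had 0.072 (adjusted p = 0.499).

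Gene length moved with these differences. Over the same 10683 abundant genes, the log2 ratio of PEDF to control had a slope of -0.0403 in experiment 1 and of -0.0563 in experiment 2 for each doubling of exon length. The median exon length was 4624 bp in those genes, 5666 bp in the 10 ligands, receptors and Smads, and 8490 bp in the 13 pathway genes that fell. Of abundant genes with exons over 8000 bp, 10.4% fell. With a correction for length beside the block, 12 of the 74 pathway genes were lower and 1 higher at an adjusted p under 0.05 (all genes tested, 1.25% lower), *Fbn1* and *Fn1* being at -0.31 and -0.28. The correction moved *Vcan* from -0.30 to -0.20 and *Ltbp1* from -0.22 to -0.14, and in the other direction *Ccn2* from -0.17 to -0.22. *Col1a2* (-0.12 to -0.034, edgeR, adjusted p = 0.811) and *Aspn* (0.19 to 0.12, adjusted p = 0.215) lost their calls. With this correction *Tgfb3* was at -0.13 (edgeR, adjusted p = 0.0987) and *Smad7* at -0.20 (adjusted p = 0.164), and 0 of the 10 were called, beside 2.16% of all genes. It moved *Tgfbr2* from 0.047 to 0.098, *Smad2* from 0.042 to 0.10 and *Tgfbr1* from 0.024 to 0.054, and *Smad4* down from 0.10 to 0.077. The part of length in the pathway differences was not tested further.

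Marker genes of cell types moved beside these lists with the block. In the fibroblast list *Col1a1*, *Col1a2*, *Fn1* and *Pdgfrb* were called lower and *Dcn* higher, and all of these except *Pdgfrb* are also in the pathway lists. The macrophage gene *Lyz2* (0.39, edgeR, adjusted p = 2e-05) and the muscle genes *Des* (0.19, adjusted p = 0.0309) and *Acta1* (0.19, adjusted p = 0.0353) were called higher, that is 1 of 6 macrophage and 2 of 5 muscle markers, and 0 of the endothelial and epithelial markers were called. Without the block 0 markers of any list were called (adjusted p of 0.94 for *Lyz2*, 0.696 for *Des*, 0.719 for *Acta1*). With the block and the length correction 0 muscle markers, 1 macrophage marker and, in the fibroblast list, 3 lower and 1 higher were called. The summed macrophage markers were 113.9 to 201.8 TPM in control MEFs and 165.5 to 207.3 TPM with PEDF, and the muscle markers 294.8 to 332.9 and 323.0 to 375.8 TPM. Both overlapped between groups. Within each experiment both sums were higher with PEDF, at 201.8 TPM in control MEFs against 207.3 and 113.9 against 165.5 for the macrophage markers and at 294.8 against 323.0 and 332.9 against 375.8 for the muscle markers. *Lyz2* was the largest part of the macrophage sum, and 3 of the 6 macrophage markers had a log2 fold change below 0 with the block. Its rise lay in experiment 2, where the control library was low (57.8 against 100.9 TPM, and 129.5 against 130.4 in experiment 1). The fibroblast markers summed to 14830 TPM in control MEFs against 13080 in experiment 1 and to 18050 against 14980 in experiment 2. The target gene *Col1a1* was the largest part of this sum (8332 against 7226 TPM and 10590 against 8469). With the block, 3 of the 8 fibroblast markers had a log2 fold change above 0 (*Thy1* 0.115, *Vim* 0.0119, *Dcn* 0.346) and 5 below. The part of the marker genes in the pathway differences was not tested.

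The genes whose levels followed those of the 3 most variable members most closely over the 4 libraries, by the root mean square difference of log2 CPM after centring, were *Srsf11* (0.0032) and *Ccnt1* (0.0046) for *Smad7*, *Cmip* (0.0036) and *Urb2* (0.0038) for *Tgfb3*, and *Zfand3* (0.0059) and *Mtx2* (0.0079) for *Smad2*. Such likeness over 4 values is common: 401, 569 and 924 of 10683 genes lay within 0.05 of *Smad7*, *Tgfb3* and *Smad2*.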

How the data were processed

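RNA of 2 control and 2 PEDF libraries was analyzed. According to the methods and the submitters' processing notes, paired reads were checked with FastQC 0.11.7, trimmed with Trimmomatic 0.38, aligned to mm10 with HISAT2 2.1.0, handled with SAMtools 1.9 and counted on genes with featureCounts 1.6.3. The deposited counts of uniquely mapped reads were not normalized. The authors also deposited TPM, whose conversion from counts is not described in the sources used here. The strand setting is not given either. For 54784 of 55487 genes the coordinates equal those of GENCODE release M21 (GRCm38), from which exon lengths were taken.

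Counts were tested in R 4.3.3 with edgeR 4.0.16 (TMM factors, robust quasi-likelihood test, two-sided, no covariate) in 19384 genes, those whose counts summed to 10 or more, with Benjamini-Hochberg adjustment over all of them. A gene was called at an adjusted p under 0.05. Libraries held 14722848 to 18144640 counts, and 22135 to 22647 genes had a count in a library. By the design text of the series the experiments used different embryos, so that equal experiment numbers pair the libraries. Over 10683 genes (mean log2 CPM above 3), the difference of experiment 2 from experiment 1 without PEDF had r = 0.426 with the same difference in the presence of PEDF, as a description across genes. The experiment was therefore also fitted as a block, alone and with a correction for exon length (natural spline with 5 degrees of freedom as an offset, 19363 genes). Further alternatives were RLE factors, DESeq2 1.42.0 with and without the block, no filter (at least 1 count), filterByExpr, limma 3.58.1 on log2(TPM + 1) and log2(TPM + 0.1), and each library left out.

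A gene of the pathway lists is not reported here and was left out of their counts. The 10 members and the pathway lists were chosen with earlier results of these data known. Of the lists, up to 5 genes called with or without the block, by smallest p with the block, and the 2 of highest TPM were named. For the 3 members of widest range, the 2 genes most like them were named. *Ltbp1*, *Lrrc32*, *Itgb3*, *Aspn*, *Col1a2*, *Lyz2*, *Des*, *Acta1* and *Pdgfrb* were named outside this rule, after their values were seen. Real-time PCR, protein and animal measurements were not analysed here.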

Additional observations from a re-analysis of the deposited data

How the results depend on the processing

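For PEDF against control, 0 of the 10 ligands, receptors and Smads were called in edgeR's test, with the replicate block, with the block and the length correction, and under every other alternative and left-out library that gave an adjusted p (DESeq2 with the block gave none for 7 of the 10). Of the 74 further pathway genes, 0 were called without the block, 15 with the replicate block, 13 with the block and length correction, 7 by DESeq2 with the block (of 75, 43 of which had no adjusted p), 5 of 75 without the filter on low counts, and 0 to 7 with 1 library left out (7 without control replicate 1, 0 without each of the others). Of all genes, 1 was called in edgeR's test without the block, 726 with the block, 418 with the block and length correction, 3 by DESeq2, 119 by DESeq2 with the block, 106 without the filter, 0 with filterByExpr, 0 by limma with a pseudocount of 1 or 0.1, and 2 to 205 with 1 library left out. The 7 calls of DESeq2 with the block were *Ltbp1*, *Ltbp2*, *Thbs1*, *Itgav*, *Fbn1*, *Fn1* and *Vcan*, all also called by edgeR with the block, and the causes of these differences in count were not tested. For experiment 2 against experiment 1, 1 of the 10 was called with treatment as a term and 0 otherwise. Of the 74 pathway genes, 15 were called between experiments with this term and, without it, 0 in edgeR's test, 5 of 75 without the filter, 4 without control replicate 1 and 10 without PEDF replicate 2. The calls of the 15 pathway genes and of the marker genes with PEDF, and that of *Tgfb3* between experiments, were made with the pairing in the fit. They were not made in edgeR's test without it on all 4 libraries with the filter of 10 counts. Without pairing and without the filter, edgeR called *Fbn1*, *Dcn*, *Col5a1*, *Fn1* and *Vcan* of the pathway lists. The pairing changed no call of the other named genes of these lists with PEDF.

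The log2 fold change with PEDF turned for *Tgfb1* in limma (-0.0012 with either pseudocount), for *Acta2* with the length correction (-0.051) and in limma (-0.0067 with either pseudocount), and for *Ski* with the length correction (0.0014). With 1 library left out it ranged from -0.019 to 0.063 for *Tgfb1*, -0.20 to 0.0082 for *Tgfb3*, -0.0029 to 0.051 for *Tgfbr1*, -0.12 to 0.038 for *Tgfbr3*, -0.045 to 0.13 for *Smad2* and -0.022 to 0.056 for *Acta2*. *Smad7* stayed between -0.30 and -0.090 (without PEDF replicate 2 and 1), *Smad3* between -0.12 and -0.023, *Smad4* between 0.085 and 0.12, *Tgfb2* between -0.083 and -0.016, *Tgfbr2* between 0.016 and 0.078, *Acvr1* between -0.25 and -0.068 and *Fkbp1a* between 0.041 and 0.10. Of the called pathway genes, *Itgav* ranged from -0.38 to -0.13, *Ltbp1* from -0.36 to -0.074, *Lrrc32* from -0.29 to -0.16, *Itgb3* from -0.43 to -0.27, *Col1a2* from -0.20 to -0.046 and *Aspn* from 0.17 to 0.20, with the smallest differences without control replicate 2 (equalled for *Itgav* without PEDF replicate 1). The difference between experiments turned in limma for *Tgfbr2* (0.015) and *Smad3* (0.023), and with 1 library left out ranged from -0.044 to 0.055 for *Tgfb1*, -0.0024 to 0.13 for *Tgfbr3*, -0.097 to 0.031 for *Smad3*, -0.028 to 0.082 for *Smad4* and 0.022 to 0.28 for *Smad7* (lowest without PEDF replicate 1). Where a left-out library leaves 1 in a group, that library was assumed to vary like the other group. With 2 libraries a group, the 95% intervals of all 10 genes without the block included 0, at 525 or more counts in every library.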
